A study of Mus musculus with 6 samples.

Results

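The genes described here encode the proteins that mouse cells use to present peptides on major histocompatibility complex (MHC) class II molecules. They are Cd74, H2-Aa, H2-Ab1, H2-Eb1, H2-DMa, H2-Oa, H2-Ob and Ciita, 8 of the 18193 genes named on the array. They were chosen as a pathway, and every probe set (the array's unit of measurement) whose single gene symbol was one of them was used. This gave 16 of the 45037 probe sets tested: 4 for H2-Aa, 3 each for H2-Ab1 and Ciita, 2 for H2-DMa and 1 each for the other 4 genes. One further probe set, which the annotation gives to both H2-Ob and Gm20506, was left out by that rule.

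The study compared 2 populations of haematopoietic stem cells (HSCs) from the bone marrow of SCL-tTA H2B-GFP transgenic mice, after a chase of 170 days on doxycycline. In these mice the tTA-S2 transactivator is expressed from the endogenous scl locus and drives a tetracycline-responsive fusion of histone H2B with GFP, so that the label can be made in HSCs and progenitors only. Doxycycline stops its production, and each division then dilutes it. Both populations were gated as CD34 Neg, Lin Neg, Sca1+, cKit+, CD150+ and CD48 Neg; the label-retaining cells (LRC) were GFP+ and the non-LRC were GFP Neg. All groups share the transgenes and the doxycycline. Each group had 3 arrays from samples described as biologically independent. How many animals went into a sample, and their age and sex, are not given in the sources used here. GFP Neg cells may have diluted the label or may never have carried it, which cannot be told apart here.

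A class II molecule is a pair of chains, alpha and beta, that shows peptides from endosomes to CD4 T cells. New pairs bind the invariant chain, encoded by Cd74, which blocks the groove and guides them to the endosome; there DM removes the last fragment of the invariant chain and loads peptide, and DO restrains DM. CIITA is a co-activator of class II genes that docks on proteins bound to a shared promoter module. The X box of that module is bound by the RFX complex and the Y box by NF-Y. B cells, dendritic cells and macrophages are the cells best known for class II, and class II has also been described on haematopoietic stem and progenitor cells.

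That module can be read in the promoters of 4 of the genes, which are shown because CIITA is described above as acting through it. RefSeq promoter windows of 300 bases (250 before and 50 after the start, build GRCm38.p6) matched 5 of the 8 genes with 6 windows. GCAAC, letters of the X box, and ATTGG, the Y box core (CCAAT on the other strand), are in capitals; these letters were chosen after reading the sequences.
H2-Oa: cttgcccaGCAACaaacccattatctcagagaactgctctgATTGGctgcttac
H2-Ob: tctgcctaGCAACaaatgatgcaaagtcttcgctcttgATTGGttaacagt
H2-Aa: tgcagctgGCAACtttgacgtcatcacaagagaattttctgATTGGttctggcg
H2-Eb1: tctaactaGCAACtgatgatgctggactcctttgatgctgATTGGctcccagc
The H2-Oa stretch lies at chr17:34092295-34092348 (plus strand), that of H2-Ob at chr17:34238810-34238860 (plus), that of H2-Aa at chr17:34287859-34287912 (minus) and that of H2-Eb1 at chr17:34305768-34305820 (plus). In these 4 windows GCAAC began 76 to 91 bases before the start, and 25 to 28 bases lay between it and ATTGG. Searched on both strands, GCAAC was in 5 of the 6 windows against 35.2% of all 32851 promoter windows, and ATTGG was in 5 of the 6 against 37.4%. GCAAC followed by ATTGG on the same strand, at most 45 bases on and without overlap, was in 4 of the 6 windows against 1.90% of all. Neither H2-DMa window held both strings. Because the letters were chosen after reading these sequences, the shares of all windows beside them are no test. The members of the family share ancestry, so these matches are not independent, and they are a description of letters, not of binding.

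Expression is given as the deposited log2 value of each probe set, so that a difference of 1 is a 2-fold difference. Array medians were 4.33 to 4.39, and correlations between arrays across probe sets were 0.901 to 0.970; LRC replicate 1 correlated least with the others (0.901 to 0.919). The hybridization controls, transcripts added at a fixed amount, were at 11.24 and 11.02 on LRC replicates 1 and 3 and at 10.58 to 10.70 on the other 4 arrays. Xist, transcribed from the inactive X chromosome, was at 11.65 and 11.58 on replicate 2 of non-LRC and LRC and at 3.54 to 5.13 on the other arrays, while Eif2s3y, a Y-linked gene, was at 2.28 and 2.82 against 7.86 to 8.74. Replicate 2 of both groups thus stands apart in these sex-linked genes, which were chosen after their values were seen.

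No class II gene passed the test between LRC and non-LRC. In limma, with p-values adjusted over all 45037 probe sets, 0 of the 16 class II probe sets passed the 0.05 threshold (0% of all probe sets passed and 0% of genes), and their adjusted p lay between 0.998 and 0.999. At an unadjusted p under 0.05 there were also 0 of the 16, where 1673 of all probe sets (3.71%) and 682 genes (3.75%) fell under it. For none of the 16 did the 3 LRC values lie wholly above or below the 3 non-LRC values, against 8.28% of all probe sets (4.88% higher in LRC and 3.40% lower) and 8.32% of genes. A higher mean in LRC was found for 9 probe sets and a lower one for 7, against 55.3% higher among all probe sets. With each gene taken at its probe set of highest mean, 5 of 8 genes had the higher mean in LRC, against 54.9% of all genes, and the median difference was 0.16, against 0.03 over all genes. In bulk samples like these, fewer cells with a transcript and less of it per cell cannot be told apart.

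**Figure D1:**
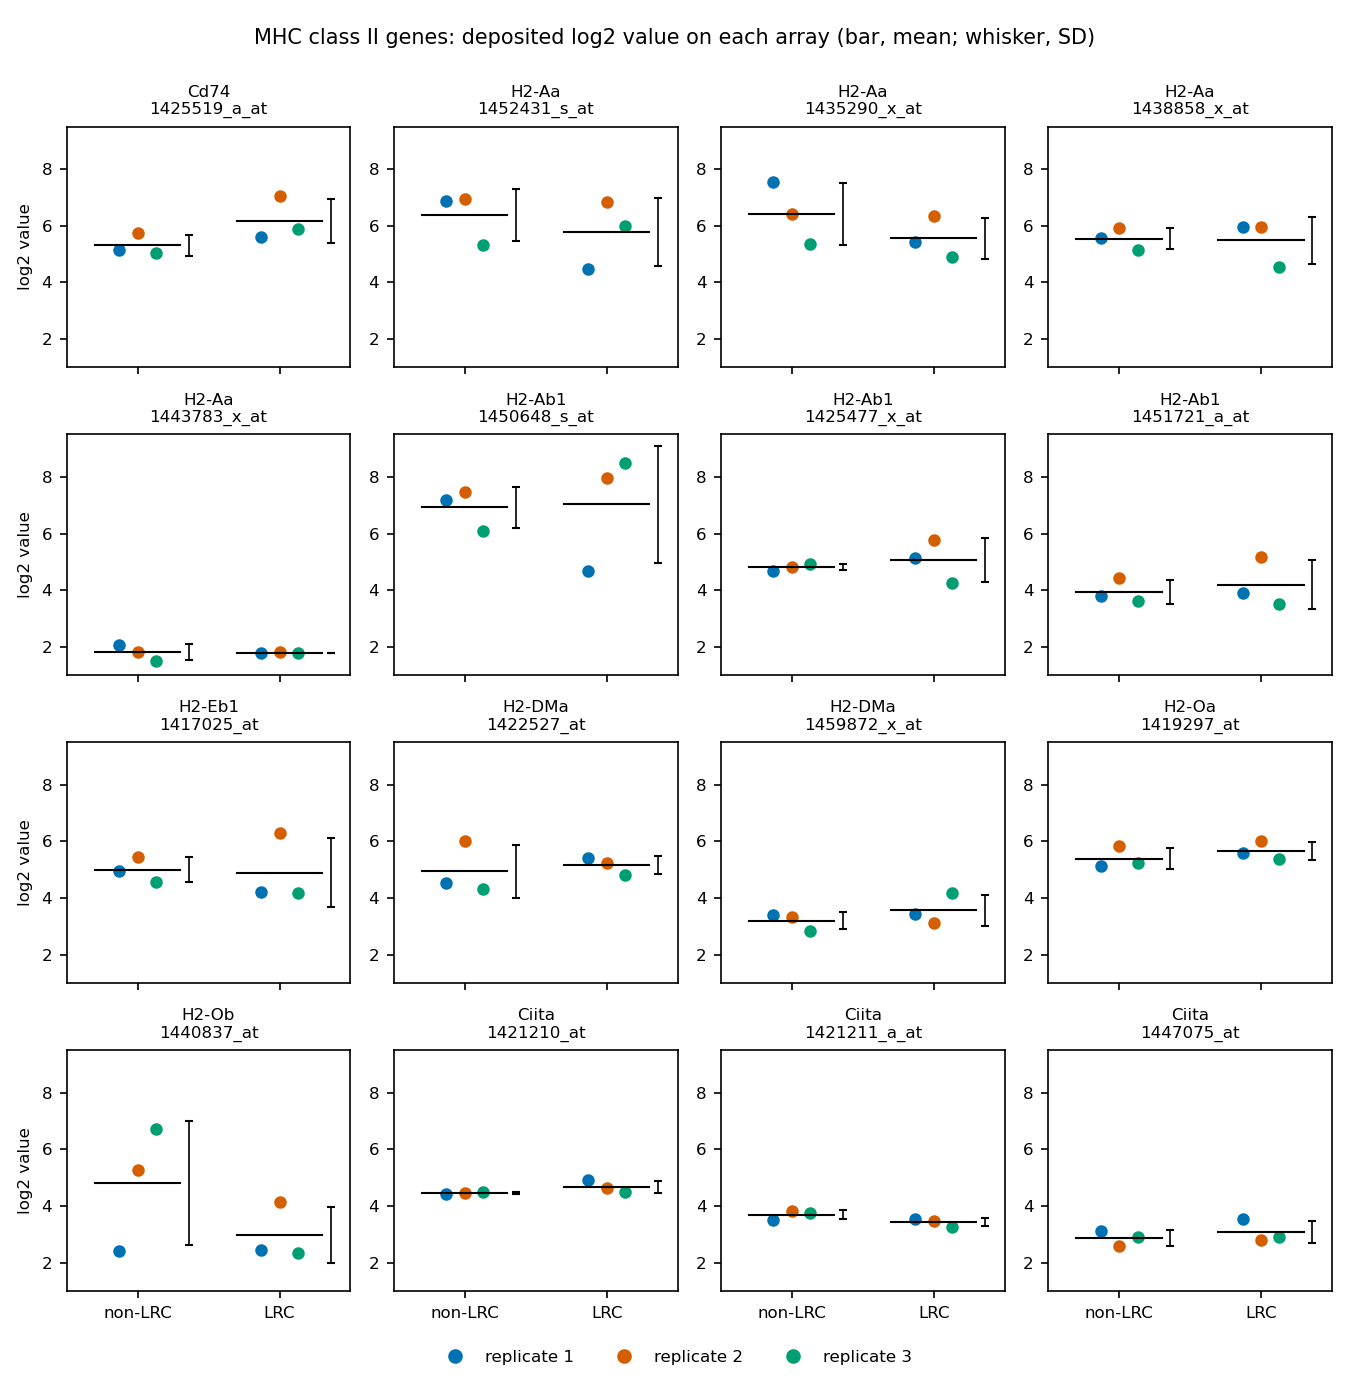
Deposited log2 value (y axis) of each of the 16 class II probe sets on each array, in non-LRC and LRC; points are arrays coloured by replicate number, bars the group means and whiskers the SD (n = 3 per group). The 2 groups overlap in every panel; the H2-Ob values spread from 2.34 to 6.72, and those of the lowest H2-Aa probe set lie between 1.51 and 2.08.

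Cd74, the invariant chain gene and the chaperone of all class II pairs, had the smallest unadjusted p of the set (0.0861). Its values were 5.15, 5.74 and 5.02 in non-LRC replicates 1 to 3 and 5.58, 7.03 and 5.88 in LRC replicates 1 to 3. LRC replicate 2 was the highest array and the lowest LRC array lay below the highest non-LRC array. The LRC mean was 6.16 ± 0.76 and the non-LRC mean 5.30 ± 0.38 (± SD over 3 arrays), a difference of 0.86 (SE 0.42, 95% interval -0.16 to 1.89, limma adjusted p = 0.998), or 1.82-fold. Within replicate number 2 the difference was 1.29, and within replicates 1 and 3 it was 0.65. Without LRC replicate 2 it was 0.43, and with the hybridization controls as a covariate it was 1.61, so that its sign held while its size moved widely.

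H2-Aa encodes the alpha chain of the I-A molecule, and its 4 probe sets gave 4 different pictures. The probe set of highest mean, 1452431_s_at, read 6.86, 6.94 and 5.30 in non-LRC and 4.48, 6.84 and 5.97 in LRC. Each group held at least 1 array near 6.9 and 1 well below it, and the difference was -0.60 (SE 0.71, interval -2.32 to 1.12, limma adjusted p = 0.998). Without LRC replicate 1, its lowest array, the difference was 0.04.

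The second H2-Aa probe set, 1435290_x_at, read 7.53, 6.41 and 5.33 in non-LRC and 5.42, 6.32 and 4.90 in LRC. Its highest value was that of non-LRC replicate 1, and the difference was -0.88 (SE 0.62, interval -2.38 to 0.63). The third, 1438858_x_at, differed by -0.06 (SE 0.45), and the fourth, 1443783_x_at, by -0.02 (SE 0.21) with all 6 values between 1.51 and 2.08, among the lowest on the array. The suffixes s and x mark probe sets whose probes can also match other transcripts, so these values may not be those of H2-Aa alone.

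H2-Ab1 encodes the beta chain that pairs with H2-Aa. Its probe set of highest mean, 1450648_s_at, read 7.20, 7.48 and 6.09 in non-LRC and 4.67, 7.94 and 8.48 in LRC. LRC held both the lowest and the 2 highest arrays, and the means of 7.03 ± 2.06 and 6.92 ± 0.74 differed by 0.11 (SE 1.02, interval -2.35 to 2.58). With so wide an interval a difference of several-fold in either direction was not detectable for this probe set.

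The other H2-Ab1 probe sets, 1425477_x_at and 1451721_a_at, differed by 0.25 (SE 0.39) and 0.25 (SE 0.48). These 2 shared their highest array, LRC replicate 2, at 5.79 and 5.19, and their lowest, LRC replicate 3, at 4.26 and 3.51. LRC replicate 3 was instead the highest array for 1450648_s_at, at 8.48, so that probe set went against the other 2 there.

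H2-Eb1 encodes the beta chain of the I-E molecule. Its values were 4.97, 5.46 and 4.57 in non-LRC and 4.22, 6.31 and 4.17 in LRC. Replicate 2 was the highest array of each group, and LRC replicates 1 and 3 were the 2 lowest arrays of all. The group difference was -0.10 (SE 0.62, interval -1.60 to 1.40, limma adjusted p = 0.999), made of 0.85 within replicate 2 and -0.57 within replicates 1 and 3. LRC replicates 1 and 3 are also the arrays with bright hybridization controls, and with those as a covariate the difference was 1.00 (SE 0.51); the part of either measure in these values was not tested.

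H2-DMa encodes the alpha chain of DM, the peptide exchange factor. Its main probe set, 1422527_at, read 4.52, 6.0 and 4.31 in non-LRC and 5.42, 5.25 and 4.81 in LRC. The LRC values lay inside the non-LRC range, and the difference was 0.22 (SE 0.48, interval -0.94 to 1.37). Its sign was opposite in the 2 kinds of array, at -0.75 within replicate 2 and 0.70 within replicates 1 and 3. The second probe set, 1459872_x_at, differed by 0.38 (SE 0.33).

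H2-Oa and H2-Ob encode the chains of DO, the inhibitor of DM, a molecule best known from B cells. H2-Oa was the steadier: it read 5.14, 5.83 and 5.23 in non-LRC and 5.60, 6.03 and 5.37 in LRC, a difference of 0.27 (SE 0.28, interval -0.41 to 0.95). The 2 highest arrays were replicate 2 of LRC and of non-LRC, and the groups overlapped.

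H2-Ob had the widest spread of the 16 probe sets. It read 2.43, 5.27 and 6.72 in non-LRC and 2.46, 4.13 and 2.34 in LRC. Non-LRC replicate 1 and LRC replicates 1 and 3 lay together near 2.4, and the other 3 were spread from 4.13 to 6.72. Its range over the arrays was 4.38, a range that 0.666% of all probe sets reached or passed. The LRC mean of 2.98 ± 1.00 and the non-LRC mean of 4.81 ± 2.19 differed by -1.83 (SE 1.12, interval -4.53 to 0.87, limma adjusted p = 0.998). The difference was -0.88 without non-LRC replicate 3, -3.02 without non-LRC replicate 1 and -0.53 with the hybridization controls as a covariate. The probe set shared with Gm20506 read 4.81, 3.73 and 3.89 in non-LRC and 4.44, 3.95 and 3.56 in LRC, so non-LRC replicate 1 was its highest array where the H2-Ob probe set was near its lowest.

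Ciita, which encodes the co-activator, had the smallest standard error of the main probe sets. Its main probe set, 1421210_at, read 4.41, 4.47 and 4.50 in non-LRC and 4.91, 4.63 and 4.50 in LRC. The difference was 0.22 (SE 0.19), and its interval of -0.24 to 0.68 was the narrowest among them. The others, 1421211_a_at and 1447075_at, differed by -0.27 (SE 0.19) and 0.21 (SE 0.28), so the 3 probe sets did not share a sign.

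**Figure D2:**
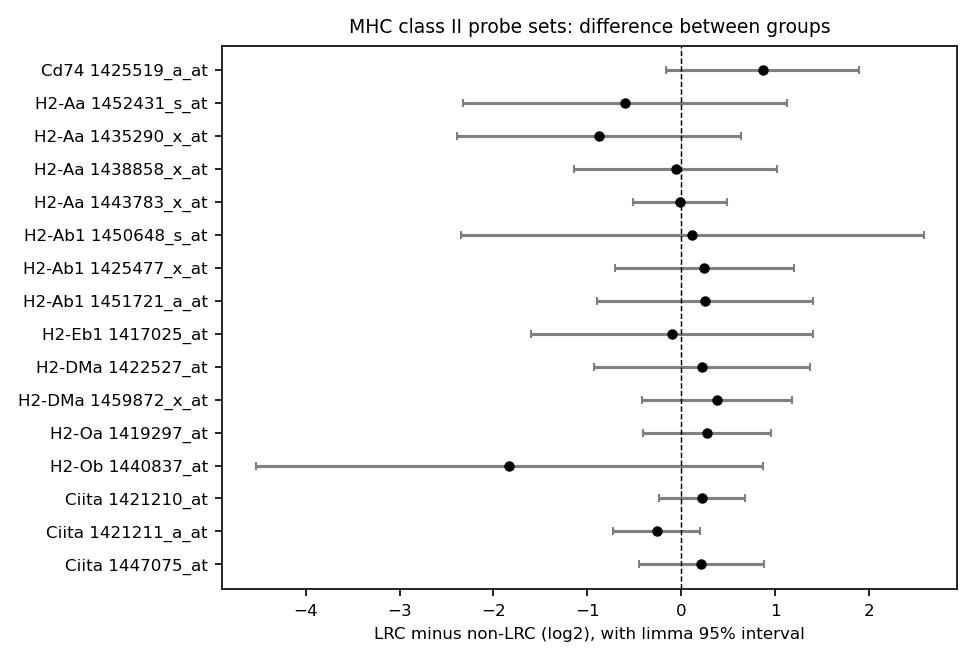
Difference between LRC and non-LRC (x axis, log2) for each of the 16 class II probe sets; points are limma estimates and bars their 95% intervals (n = 3 arrays per group). Every interval crosses 0, from the narrow ones of Ciita 1421210_at (-0.24 to 0.68) to that of H2-Ob (-4.53 to 0.87).

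Most of the class II probe sets varied widely from array to array. Of the 16, 11 had a range over the 6 arrays of both groups above the median range of all probe sets, 0.97. All Ciita probe sets, H2-Oa and H2-Aa 1443783_x_at lay below it. For Cd74, H2-Aa, H2-Eb1 and H2-Oa, 4 of the 8 genes, replicate 2 was the highest array of its group in both groups, as it was for 8.35% of all genes. By probe set the count was 6 of 16, against 9.22% of all probe sets. Both arrays of replicate 2 lay above all 4 others for H2-Eb1, H2-Oa and the H2-Ab1 probe set 1451721_a_at, which is 3 of 16 against 5.90%. Replicate 2 was the lowest of its group in both groups for 1 of 16, against 17.8% of all. The mean levels of the B cell, dendritic cell and T cell markers and of the genes restricted to other organs, given below, were each lowest on replicate 2 in both groups. That of the monocyte and macrophage markers was lowest on replicate 2 in LRC, at 3.94, but not in non-LRC, where replicate 2 was at 4.11 and replicate 3 at 3.82. The mean levels of the HSC and endothelial markers went the other way, with replicate 2 highest in both groups. The HSC mean stood there at 9.13 in non-LRC and 9.10 in LRC, against 9.04 and 9.05 on replicate 3. The endothelial mean stood there at 5.75 and 5.39. Their members did not all share this. Of the HSC markers only Kit and Tek were highest there in both groups, and Procr was lowest there in both, at 10.34 and 10.28. Of the endothelial markers Pecam1, Emcn and Tie1 were highest there in both groups, and Cdh5 and Kdr in neither. The mean levels of the neutrophil and erythroid markers were neither highest nor lowest on replicate 2 in either group. Replicate 2 holds the 2 arrays with high Xist. This pattern was noticed in the same values, and the part of sex, replicate number or array quality in it was not tested. The sign of the LRC difference was the same within replicate 2 as within replicates 1 and 3 for 10 of the 16 probe sets.

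**Figure D3:**
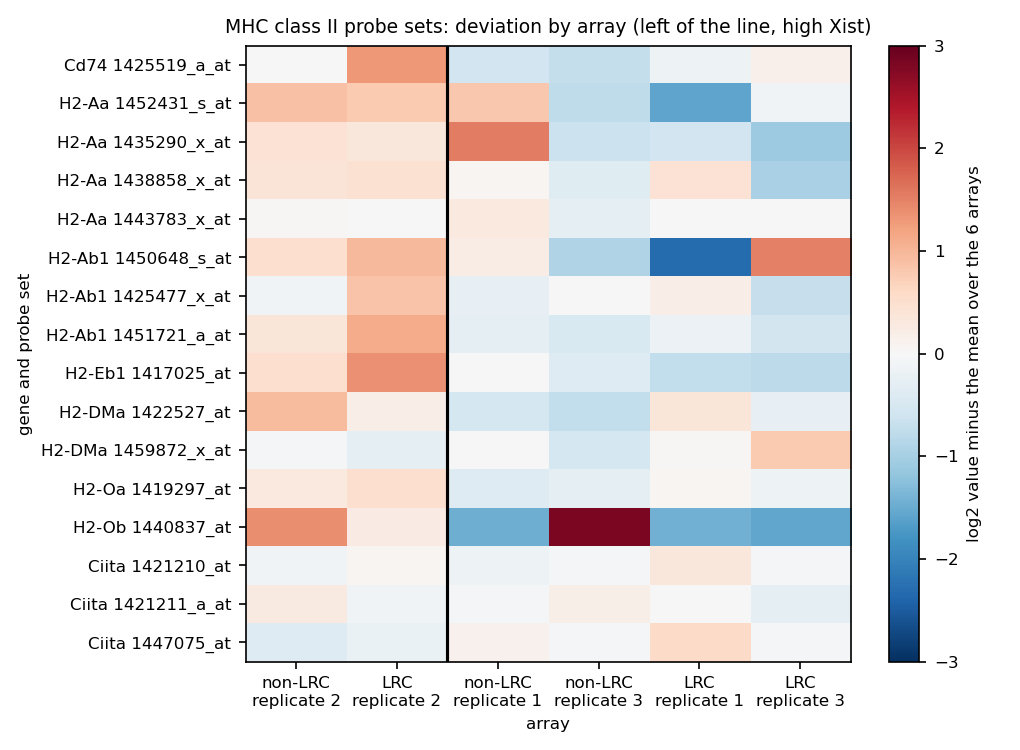
Log2 value of each class II probe set minus its mean over the 6 arrays (colour scale), by array (x axis); the 2 arrays left of the line are replicate 2 of each group, with high Xist. Cd74, H2-Eb1 and H2-Oa lie above their mean on LRC replicate 2, H2-Ob lies far above its mean on non-LRC replicate 3, and the Ciita rows are pale throughout.

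Genes whose pattern over the 6 arrays was most like that of Cd74, by Pearson's r among 12447 genes, were Mfsd3 (0.990), Txndc11 (0.990), Hoxa7 (0.976), BC034090 (0.976) and Faap24 (0.973). Those most like the main H2-Aa probe set were Scyl3 (0.994), Atf6b (0.992), Jak2 (0.989), Bag5 (0.987) and Mrpl43 (0.986). Jak2, a kinase of cytokine receptors, read 8.59, 8.71 and 8.21 in non-LRC and 8.04, 8.59 and 8.42 in LRC: the same 3 arrays were its highest as for H2-Aa, and LRC replicate 1 was the lowest for both. These genes were picked as the highest of many correlations over few arrays, and no test was made of them.

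Of 33 other genes of the pathway, 31 were measured and 0 passed in limma, where 0% of all genes passed. The same share stands beside each count of 0 passed in the lists below. An unadjusted p under 0.05 was found for 2 of the 31, against 3.75% of all genes. The groups did not overlap for 3 higher and 1 lower in LRC, where all genes gave 4.71% and 3.62%. The median difference of the 31 was 0.01, with 16 higher and 15 lower means, against 54.9% higher among all genes. Of the 13 measured regulators of class II transcription, 6 had a higher and 7 a lower mean in LRC, and 0 passed. Rfxap, a subunit of the RFX complex that binds the X box shown above, had the smallest p of them. It read 7.19, 6.70 and 6.99 in non-LRC and 5.48, 5.89 and 6.30 in LRC, with all LRC values below all non-LRC values. The difference was -1.07 (SE 0.27, limma adjusted p = 0.998), while its other probe set differed by -0.21 (SE 0.53) with overlapping groups.

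Irf1, an interferon-induced factor that acts upstream of Ciita, read 7.58, 7.59 and 7.67 in non-LRC and 7.91, 8.48 and 8.03 in LRC. All LRC values were above all non-LRC values, and the difference of 0.53 (SE 0.21) had an adjusted p of 0.998 in limma. Irf8, a factor of myeloid and B cell development, differed by -0.42 (SE 0.25), and its other probe set by 0.35 (SE 0.38).

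Of the 7 endosomal enzymes, 4 had a higher and 3 a lower mean in LRC and 0 passed. Ctsb, the protease cathepsin B, read 7.92, 8.44 and 8.33 in non-LRC and 8.97, 8.56 and 8.64 in LRC. The main probe set separated the groups with a difference of 0.50 (SE 0.23), but another Ctsb probe set separated them the other way, by -0.67 (SE 0.24). The remaining Ctsb probe sets, with overlapping groups, differed by 0.35 (SE 0.69), 0.46 (SE 0.65) and -0.02 (SE 0.24). Ctss, cathepsin S, which trims the invariant chain, read 4.35, 4.72 and 3.45 in non-LRC and 3.02, 4.55 and 7.38 in LRC. LRC replicate 3 was far above the other arrays, and the difference was 0.81 (SE 1.07). Ifi30, the thiol reductase of the endosome, differed by -0.35 (SE 0.33).

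Among the 3 other class II genes measured 0 passed: H2-DMb2, a beta chain of DM, differed by -0.10 (SE 0.21), H2-Ea, the alpha chain of I-E, by 0.05 (SE 0.33) and H2-Eb2 by 0.09 (SE 0.22). The other 2 probe sets of H2-DMb2 were high on 1 array, non-LRC replicate 1, at 5.45 and 5.06 against 2.51 to 3.44 elsewhere. Of the 6 genes of turnover and costimulation 3 had a higher and 3 a lower mean in LRC and 0 passed. Marchf1 encodes a ubiquitin ligase that removes class II from the surface. Its main probe set was high on the same array, at 6.81 against 2.46 to 3.18 on the other 5, which gave a difference of -1.48 (SE 1.07). The other 2 Marchf1 probe sets were not high on that array, at 2.47 and 1.76. They differed by 0.04 (SE 0.24) and 0.39 (SE 0.33). Cd40, a costimulatory receptor, differed by 0.30 (SE 0.22) with separated groups, while its other 2 probe sets, with overlapping groups, differed by 0.30 (SE 0.34) and 0.07 (SE 0.20). Cd80, a ligand of CD28, differed by 0.36 (SE 0.22). On the CD4 side, Cd4 differed by 0.05 (SE 0.24) and Lag3, another receptor for class II, by -0.31 (SE 0.37).

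**Figure D4:**
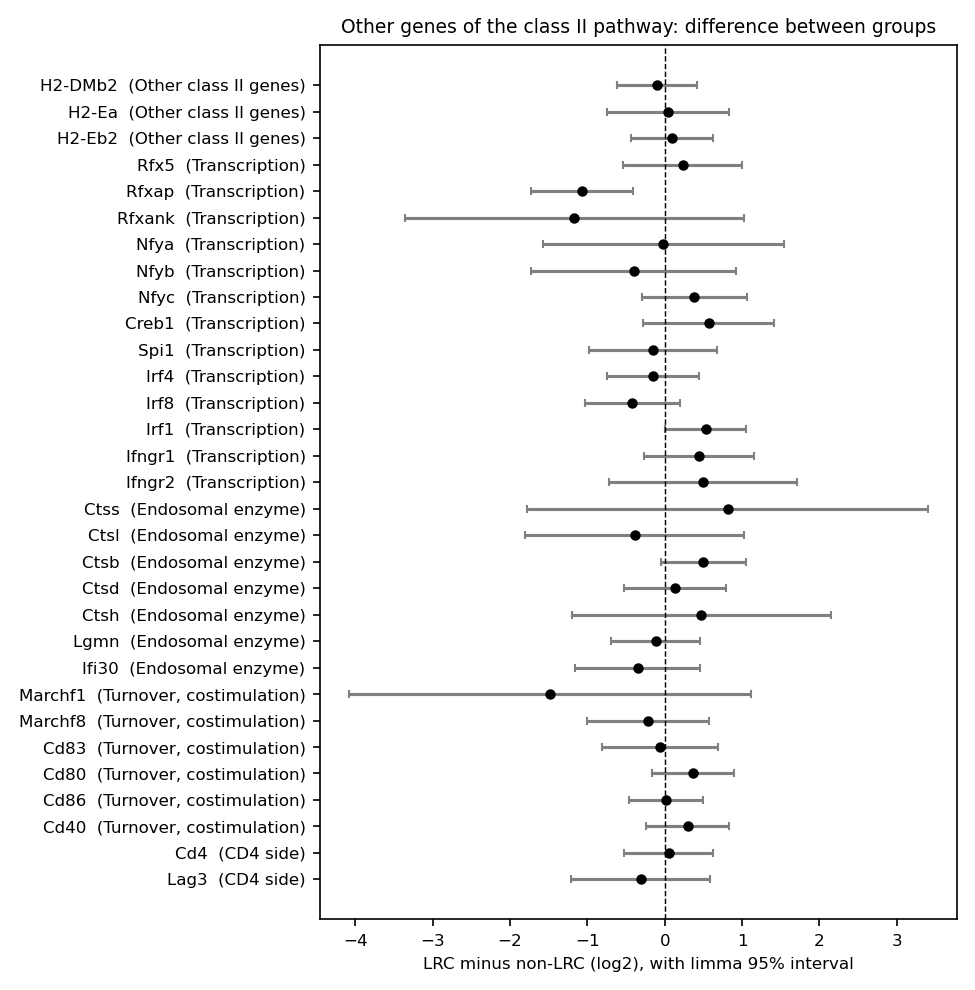
Difference between LRC and non-LRC (x axis, log2) for the 31 other genes of the class II pathway, each at its probe set of highest mean; points are limma estimates and bars their unadjusted 95% intervals (n = 3 arrays per group). The intervals of Rfxap and Irf1 leave out 0 before adjustment, and that of Marchf1, high on 1 array, is the widest.

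No marker of other cells that carry class II passed the test in limma (0 of 24), where 0% of all genes passed. That count is therefore not particular to these markers. Of 9 B cell markers 8 were measured; their mean level was 3.67 to 3.92 on the non-LRC arrays and 3.66 to 3.90 on the LRC arrays, and Ms4a1, which encodes CD20, was at 2.13 to 2.57. Of 9 dendritic cell markers 8 were measured, with a mean of 3.58 to 3.92 and 3.58 to 3.86, and Itgax, which encodes CD11c, was at 2.56 to 3.66. Of 10 monocyte and macrophage markers 8 were measured, with a mean of 3.82 to 4.18 and 3.94 to 4.32, and Adgre1, which encodes F4/80, was at 1.82 to 3.04. As a loose gauge of signal without transcript, 16 genes restricted to other organs had a mean of 3.96 to 4.16 in non-LRC and 3.84 to 4.35 in LRC. Above that gauge's highest gene mean, 5.87, stood Cd79b of the B cell list and Lyz2 of the macrophage list. Cd79b was at 5.52 to 7.17 and Lyz2 at 7.75 to 9.72 over the 6 arrays. None of the dendritic cell list stood above it, where Siglech had the highest mean, at 5.08 to 5.66. Ms4a1, Itgax and Adgre1 each lay below the mean of their list on every array, so they do not stand for the other members. T cell markers (5 of 6 measured) had a mean of 3.29 to 3.49 in non-LRC and 3.21 to 3.65 in LRC, neutrophil markers (7 of 7) 4.97 to 6.22 (the highest on non-LRC replicate 1) and 4.68 to 5.23, erythroid markers (4 of 6) 3.60 to 4.71 and 3.52 to 4.29, and endothelial markers (5 of 5) 4.99 to 5.75 and 5.0 to 5.39. HSC markers had 7 of 9 measured, all 7 above the gauge, with a mean of 8.71 to 9.13 and 8.55 to 9.10.

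By that gauge 2 of 8 class II genes, H2-Aa and H2-Ab1, had a main probe set with a mean above the highest reference gene. That gene was Pomc, whose values spread from 4.99 to 7.40 over the arrays. Above the second highest reference gene, at 5.29, stood 4 of 8, with Cd74 and H2-Oa added. Above the median of the reference genes, 4.19, stood 7 of 8. Probe sets differ in how strongly they bind, and the main ones of H2-Aa and H2-Ab1 are of the kind that can match other transcripts. The gauge therefore does not show which genes were transcribed.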

How the data were processed

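Total RNA of sorted cells was amplified by a NuGEN kit, biotin-labelled and hybridized to 1 array per sample, per the labels' protocols. The deposited values are log2 expression values normalized by the authors; the submitters' processing notes name RMA without a version, and base 2 was inferred from the values' range. RMA equalizes array distributions, so a change in total RNA per cell cannot be seen. The number of arrays limits the precision.

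Of 45101 probe sets 64 controls were left out. Symbols came from the platform annotation, updated through gene identifiers to a RefSeq table of GRCm38.p6: 34945 probe sets had 1 symbol, 932 several and 9160 none. Columns of other samples numbered 0. A model of group alone was fitted to all 45037 probe sets with limma 3.58.1 (R 4.3.3; lmFit, then eBayes), with Benjamini-Hochberg adjustment and a threshold of 0.05. Errors are moderated standard errors and intervals are 95% and unadjusted. The fit was tested on simulated data. Lists were described by counts, with no set test.

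The genes, the lists and the alternatives were chosen with earlier results of these data known. Named were all 8 genes, up to 3 genes of each pathway list by smallest p, and the 5 genes most correlated with Cd74 and with H2-Aa among those with a mean at or above the 40th percentile. Single marker genes were named outside that rule, with their values known. The alternatives were quantile normalization, median centring, a filter at that percentile, moderation with trend and robust options, weighted arrays, a replicate block, the hybridization controls (18 probe sets) as a covariate, leaving out each array, a threshold of 0.1 or an unadjusted p, and the mean of a gene's probe sets. The Xist level as a covariate and the 4 arrays with low Xist alone were added after seeing the data.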

Additional observations from a re-analysis of the deposited data

How the results depend on the processing

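Under every alternative run with adjusted p-values, 0 of the class II genes and 0 of the other pathway genes passed. So did 0 probe sets on the array, which were not counted with the mean of a gene's probe sets. At an unadjusted p under 0.05 in limma the counts were 0 class II genes, 2 other pathway genes and 1673 probe sets. For the 16 class II probe sets the smallest adjusted p under any alternative was 0.702, and 212 of 236 recomputed differences kept their sign; the filter on low values left 12 of the 16 probe sets. The other 24 changed sign, in 9 probe sets, none of which passed; their causes were not tested. With array weights H2-Aa 1443783_x_at was 0.047 and H2-Ab1 1425477_x_at -0.0020. With the hybridization control covariate H2-Aa 1452431_s_at was 0.39, H2-Aa 1438858_x_at 0.072, H2-Eb1 1.00 and Ciita 1447075_at -0.16. With Xist as a covariate H2-Aa 1438858_x_at was 0.0090 and H2-Eb1 0.056, and in the 4 arrays with low Xist H2-Ab1 1450648_s_at was -0.064 and H2-Ab1 1425477_x_at -0.11. With single arrays left out the differences ran from -1.14 to 0.041 for H2-Aa 1452431_s_at, -0.30 to 0.42 for H2-Aa 1438858_x_at, -0.16 to 0.12 for H2-Aa 1443783_x_at, -0.61 to 1.29 for H2-Ab1 1450648_s_at, -0.12 to 0.65 for H2-Ab1 1425477_x_at, -0.24 to 0.60 for H2-Ab1 1451721_a_at, -0.81 to 0.26 for H2-Eb1, -0.10 to 0.74 for H2-DMa 1422527_at and -0.019 to 0.36 for Ciita 1447075_at. The replicate numbers are shared between groups, but the labels do not say that they pair samples. Deviations from the group mean correlated at 0.08, 0.14 and 0.08 for same-numbered arrays, each above that with any other number. Such deviations cancel within a group, so these correlations are tied and are not separate signs. The 0.14 was that of replicate 2, whose arrays share high Xist. The correlations are a hint from the data and not the design. With the replicate block 0 probe sets passed, and Cd74 differed by 0.86 with an SE of 0.24 (limma adjusted p = 0.929).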
